A study of Drosophila melanogaster with 2 samples.

Results

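Neurons in which *acj6* and *dac* were detected together made up a small set of 222 cells among the 33552 cells of dissociated *Drosophila* eye-brain complexes. A cell entered the set when at least 1 unique molecular identifier (UMI, a tag that lets each captured transcript be counted once) of *acj6*, *dac* and *elav* was found in it. In addition, no UMI of 10 genes that mark other cells was allowed, namely *eya*, *sim*, *ey*, *bsh*, *hbn*, *repo*, *wor*, *Antp*, *Ubx* and *abd-A*. The set was thus selected on measured values of these 13 genes, whose levels are given only as a description.

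Eye-brain complexes were dissected from larvae raised to 120 h at 25 °C, dissociated with trypsin and captured in droplets. The labels name 1 library of *mirr*>OreR, the control, and 1 library of *mirr*>ND-42 RNAi (line BL28894), in which the *mirr* driver silences *ND-42*, a subunit gene of respiratory complex I, in the cells where *mirr* is active. The deposited tables of both are identical, and all 33552 barcodes are shared. They were used as 1 set of cells whose genotype is not assigned here, so no genotypes were compared. It was not tested if the cells come from a single library, and the study states triplicates where the labels give single libraries. Cells of 1 table are not replicates, no p-value was computed, and all intervals are exact 95% intervals that cover counting error only.

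*acj6* encodes a POU-homeodomain transcription factor with roles in the identity of olfactory and optic lobe neurons, and *dac* a nuclear factor of the eye, the mushroom body and the optic lobe. *elav* encodes an RNA-binding protein found in nearly all neurons. Both transcription factors are used as markers of developing T4 and T5 neurons, the small columnar cells of the inner optic lobe whose dendrites compute the direction of visual motion. Other genes known from T4 and T5 neurons are the SOX factors *SoxN* and *Sox102F*, the factors *bi*, *grn* and *TfAP-2*, with which their subtypes are told apart, and *ChAT* and *VAChT*, which make and load acetylcholine.

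The cells passed through the rule as follows. *acj6* was found in 2777 cells, *dac* in 5582 and *elav* in 25463, and 635 cells had all of them. Of these, 413 were left out because a UMI of an excluded gene was present, most often of *eya* (244 cells), *ey* (143) or *hbn* (109). A single UMI was the only reason for 82 of them. The 222 cells that stayed were 0.662% of all cells (0.578 to 0.754%) and 0.872% of the cells with *elav* (0.761 to 0.994%).

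The rule rested on few molecules per cell. *acj6* had a median of 4 UMIs and at most 18, and 34 cells held 1 UMI of it. *dac* had a median of 2 UMIs and at most 12, and 110 cells held 1 UMI, so that 15 cells had entered with 1 UMI of each factor. On the scale of UMIs per 10000 UMIs of a cell, *acj6* ran from 0.46 over a median of 11.2 to 69.7, and *dac* from 0.37 over 4.34 to 31.5. Genes of synaptic transmission, which the rule did not require, were found in some of the cells only. *nSyb*, encoding a synaptic vesicle SNARE, was found in 105 of the 222 cells and *brp*, encoding an active zone scaffold, in 72. Both were found in 56 cells and neither in 101.

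The cells were compared with 6194 other neurons, defined as cells with *nSyb* and *brp* that were not in the set. The neurons with *acj6* and *dac* had a median of 3226 UMIs and the other neurons of 5606. Called doublets were 16.2% of the first and 24.2% of the second. The 413 cells left out by the excluded genes were deeper still, with a median of 14162 UMIs, and 41.6% of them were called doublets.

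A gene was tested when at least 20 UMIs of it would be found in the set if its level were that of both groups together. It was called when its pooled level, the summed UMIs of a group per 10000 UMIs of that group, differed at least 2-fold and the interval of the ratio lay on 1 side of 1. Of 4664 genes tested, 34 were higher in neurons with *acj6* and *dac* (0.729%) and 126 were lower (2.7%). The median log2 ratio over all tested genes was -0.06.

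**Figure D1:**
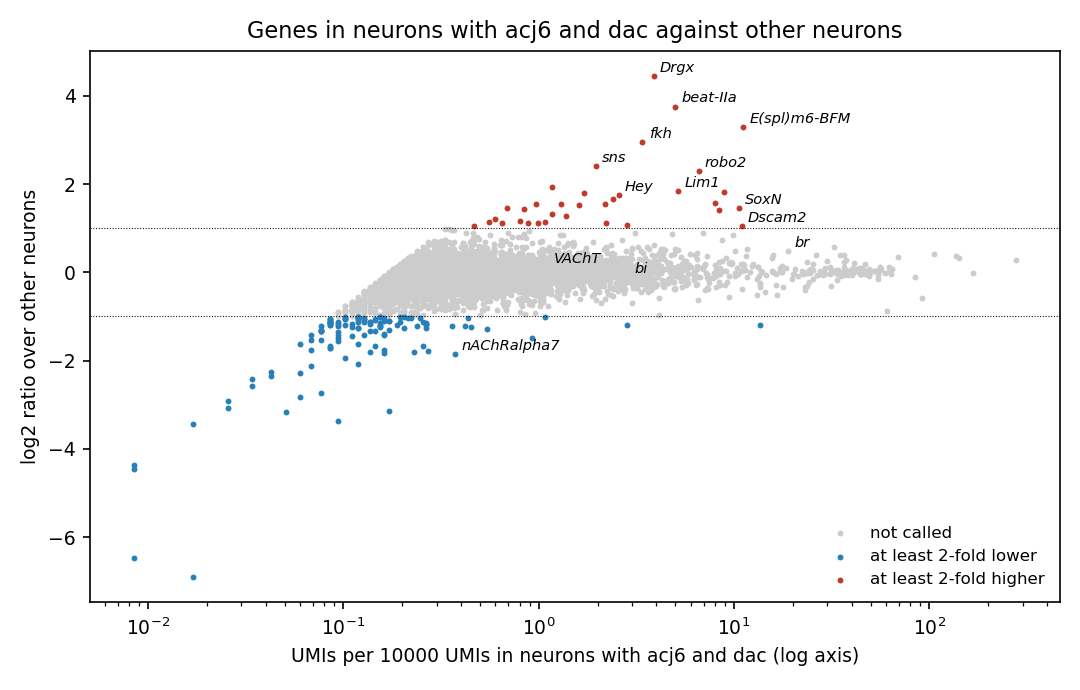
Each point is a gene, placed by its level in the 222 neurons with *acj6* and *dac* (horizontal, UMIs per 10000 UMIs, log axis) and by its log2 ratio over 6194 other neurons (vertical). Red points are called higher and blue points lower, and genes without a UMI in the set are not drawn. *Drgx*, *beat-IIa*, *E(spl)m6-BFM* and *fkh* stand at the top, while *bi* and *VAChT* lie near 0.

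The highest ratio was that of *Drgx*, which encodes a paired-like homeodomain transcription factor (arm 2L, 3662745 to 3692114 in the BDGP6.54 annotation). *Drgx* stood at 3.88 UMIs per 10000 in neurons with *acj6* and *dac* and at 0.18 in other neurons, a ratio of 21.9 (19.5 to 24.5). In single cells, the level of *Drgx* ran from 0 over a median of 4.77 to 32.5 in the set, while its median in other neurons was 0. A UMI of *Drgx* was found in 63.5% of the set and in 7.14% of other neurons. After thinning each cell to 2000 UMIs, the shares of *Drgx* were 48.7% and 2.9%. Among 257 glia (cells with *repo* and without *elav*, median 5062 UMIs) the thinned share of *Drgx* was 19.5%, which lies between these values.

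Other transcription factors followed. *fkh*, a forkhead factor (arm 3R, 28580976 to 28585264), stood at 3.39 against 0.44, a ratio of 7.71 (6.92 to 8.57), with thinned shares of 49.7% and 7.3% and of 0% in glia. *Lim1*, a LIM-homeodomain factor, stood at 5.19 against 1.46, a ratio of 3.57 (3.28 to 3.87). *zfh1*, a zinc finger homeodomain factor, had a ratio of 2.41 (2.05 to 2.82). Of 31 tested transcription factors of optic lobe neurons, 7 were called higher (*Drgx*, *Lim1*, *zfh1*, *erm*, *SoxN*, *Sox102F* and *TfAP-2*), with a median log2 ratio of 0.16. Those called lower included *svp* (ratio 0.50) and *slp2* (0.36). Over all tested genes 0.729% were called higher and 2.7% lower. The list was written with earlier results of these data known, and *SoxN*, *Sox102F* and *TfAP-2* are also among the T4/T5 genes below. The factors with the highest levels were not all among those called, since *br*, a zinc finger factor of the ecdysone response, stood at 18.9 against 13.5 and *ct*, a homeodomain factor, at 10.2 against 7.32.

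Cell surface molecules formed another group. *beat-IIa*, which encodes an immunoglobulin protein of the Beaten path family (arm 3R, 17320004 to 17366119), stood at 4.98 against 0.37, a ratio of 13.5 (12.3 to 14.8). *beat-IIa* was found in 70.3% of the set and in 15.1% of other neurons, and after thinning in 59.5%, 7.0% and, in glia, 0.5%. It was the only one of 18 tested *beat* and *side* genes called higher, whereas *beat-Ia* (ratio 0.30), *beat-IV* (0.43) and *side-IV* (0.46) were called lower. The Slit receptor gene *robo2* stood at 6.59 against 1.34, a ratio of 4.92 (4.56 to 5.30). *sns*, whose immunoglobulin protein acts in myoblast fusion, had a ratio of 5.31 (4.62 to 6.09), and *tutl*, which encodes an immunoglobulin protein of dendrite and axon tiling, one of 2.98 (2.78 to 3.18).

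Among 34 tested guidance and adhesion genes, *robo2*, *Dscam2* (ratio 2.07) and *Dscam3* (2.2) were called higher and none lower, with a median log2 ratio of 0.07. None of 17 tested *DIP* and *dpr* genes, a family of pairing immunoglobulin receptors, was called higher. Over all tested genes the shares were 0.729% higher and 2.7% lower, so a short list with none higher does not stand out. *DIP-delta* (0.40), *DIP-theta* (0.30) and *dpr13* (0.42) were called lower, each from 31 UMIs or fewer in the set.

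On the list of newborn neuron genes, most of which belong to the *Enhancer of split* (*E(spl)*) complex, *E(spl)m6-BFM* and *Hey* were higher. *E(spl)m6-BFM*, a Bearded family gene of the *Enhancer of split* complex (arm 3R, 26032911 to 26034047), stood at 11.1 against 1.13, a ratio of 9.81 (9.24 to 10.4). Its level was uneven between cells, from 0 over a median of 3.72 to 144 per 10000. *Hey*, a bHLH gene switched on by Notch in newborn neurons, stood at 2.57 against 0.76, a ratio of 3.37 (2.99 to 3.79). Of the 7 newborn neuron genes tested, these 2 were called higher and none lower, and the median log2 ratio was 0.63. None of 11 tested genes of neuronal maturation was called in either direction, and their median log2 ratio was -0.28. Over all tested genes 0.729% were called higher and 2.7% lower. Since the other neurons were chosen by *nSyb* and *brp*, this list is not independent of that choice. In 10912 cells with *elav*, without the excluded genes and outside the set, which need have neither, the log2 ratio of *E(spl)m6-BFM* was 1.48 and that of *Hey* 0.11, so that *Hey* was not called there.

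Of 11 tested neuropeptide genes, 6 were called lower and none higher. No UMI of *Capa*, *Crz* or *Trissin* was found among the 1174298 UMIs of the set, which allows a level of up to 0.0255 per 10000, against 1.2, 0.22 and 0.87 in other neurons. *Hug*, *Pdf* and *Nplp1* had ratios of 0.0083, 0.011 and 0.096. The 10 cells with most UMIs held 99.3% of the *Capa* UMIs of the other neurons and 83.9% of those of *Nplp1*, so these peptides were low in most other neurons as well. *Vmat*, the vesicular monoamine transporter gene, had a ratio of 0.14 from 7 UMIs in the set. In other neurons 10 cells held 69.3% of the *Vmat* UMIs, and it was found in 1.35% of the set and 2.97% of other neurons. *nAChRalpha7*, a nicotinic receptor subunit gene, stood at 0.37 against 1.35, a ratio of 0.28 (0.20 to 0.37). Of the 10 tested acetylcholine receptor genes, *nAChRalpha7* was the only one called. Of 16 tested receptors for glutamate, GABA and amines 1 was called, *Octbeta1R*, and of 17 tested ion channel genes none. Such low counts lie near the shares over all tested genes, 0.729% higher and 2.7% lower.

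The remaining genes among the 15 highest ratios included *Traf4* (ratio 3.83), a TNF receptor-associated factor gene, *Rbp* (2.93), which encodes a protein that binds RIM at active zones, and the noncoding RNAs *lncRNA:CR44272* (3.47) and *lncRNA:CR46004* (3.15). *Traf4* was found in 19.5% of thinned glia, close to its 20% in the set. *Nplp2*, a peptide precursor gene, had a pooled ratio of 3.55, but 2 cells held 594 and 410 of its 1046 UMIs. The same 2 cells held 86 and 41 UMIs of *Idgf6*, a chitinase-like growth factor gene, and 56 and 0 of *Hml*, a hemocyte marker. *Nplp2* was found in all 17 hemocytes (cells with *Hml* and *NimC1* and without *elav*). Without the 2 cells the log2 ratio of *Nplp2* turned from 1.83 to -2.75, and the number of genes called higher was 30.

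Markers of other cells were mostly under the limit for testing. Summed levels in the set and in other neurons were 1.88 and 1.62 per 10000 for 9 glial markers, 4.45 and 3.86 for 9 hemocyte markers, 3.93 and 5.79 for 8 neuroblast markers and 1.09 and 1.69 for 9 eye field markers. The defining glial gene *repo* and neuroblast gene *wor* were at 0 by the rule. For 10 olfactory and antennal genes the sums were 18.6 and 12.1, and for 10 Kenyon cell genes, of mushroom body neurons, 16.6 and 18.1. Their part in the results was not tested.

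Whether these cells look like T4 and T5 neurons was read from 7 genes that the rule had not used. 3 of the 7 were called higher and none lower, with a median log2 ratio of 0.14 beside -0.06 for all tested genes. Of all tested genes 0.729% were called higher and 2.7% lower. *SoxN* was the most abundant of them, at 10.6 UMIs per 10000 against 3.83, a ratio of 2.76 (2.60 to 2.92), and was found in 81.5% of the set and 56.0% of other neurons. In single cells, *SoxN* ran from 0 over a median of 13.3 to 69.0, beside a median of 1.41 in other neurons. *Sox102F* stood at 0.97 against 0.33, a ratio of 2.92 (2.40 to 3.53), and *TfAP-2* at 0.69 against 0.25, a ratio of 2.76 (2.18 to 3.46). Both were low, and were found in 22.5% and 18% of the set. The calls depended on the cells compared. Against the 10912 further cells with *elav*, *Sox102F* alone was called, and the log2 ratios were 1.01 for *Sox102F*, 0.92 for *TfAP-2* and 0.91 for *SoxN*. Over thinned cells *SoxN* and *Sox102F* were called of 5 tested genes, whose median was -0.35. The mean over cells and leaving out called doublets kept all 3 calls. Among the 56 cells with *nSyb* and *brp* none of 3 tested genes was called. A separate list held 6 genes of inner optic lobe progenitors. Of these, 3 were tested and none was called, with a median log2 ratio of -0.75. Their summed levels were 2.83 per 10000 in the set and 4.30 in other neurons.

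The other 4 genes did not pass the limits. *bi* stood at 2.88 against 3.08, a ratio of 0.93 (0.84 to 1.04), and *grn* at 0.31 against 0.35, a ratio of 0.88 (0.61 to 1.22). *ChAT* had a ratio of 1.10 (0.82 to 1.46) and *VAChT* one of 1.08 (0.90 to 1.29). All 4 intervals of these pooled ratios hold 1 and leave out a 2-fold difference in either direction. Means over single cells were lower in the set for all 4. They were 2.75 against 3.87 for *bi*, 0.35 against 0.44 for *grn*, 0.43 against 0.66 for *ChAT* and 1.32 against 1.81 for *VAChT*. The shares in glia were not low for every gene. *bi* was found in 30.5% of thinned glia and *SoxN* in 31.1%, near their 29.8% and 40.1% in thinned other neurons, whereas *Sox102F* and *TfAP-2* were found in 0.5% and 0% of thinned glia. In the thinned set the shares were 33.3% for *bi* and 71.3% for *SoxN*. Whether the shares in glia come from free RNA was not tested.

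**Figure D2:**
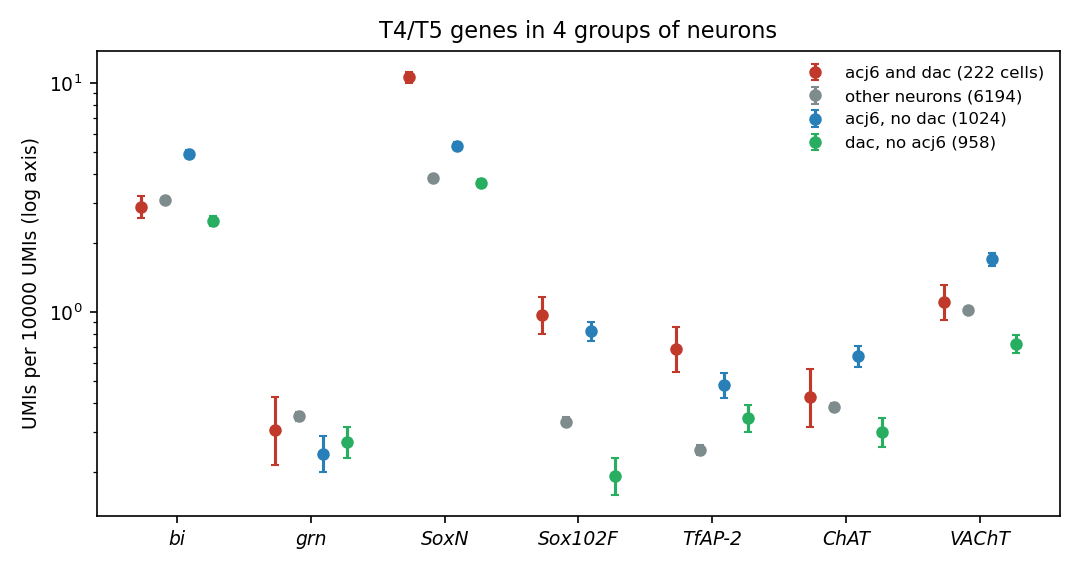
Levels of the 7 T4/T5 genes (vertical, UMIs per 10000 UMIs, log axis) in neurons with *acj6* and *dac*, other neurons, neurons with *acj6* and without *dac*, and neurons with *dac* and without *acj6*. Points are pooled levels and bars exact 95% intervals. The first group is highest for *SoxN*, *Sox102F* and *TfAP-2*, while neurons with *acj6* alone are highest for *bi*, *ChAT* and *VAChT*.

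The groups nearest by rule placed these genes further. Against 1024 neurons with *acj6* and without *dac*, 50 of 4502 tested genes were higher (1.11%) and 64 lower (1.42%), and none of the 7 was among them. *SoxN* had a ratio of 1.98 (1.86 to 2.12), *TfAP-2* of 1.44 (1.10 to 1.85) and *Sox102F* of 1.18 (0.95 to 1.45). *bi*, *ChAT* and *VAChT* were higher in the neurons without *dac*, with ratios of 0.59 (0.52 to 0.66), 0.66 (0.48 to 0.90) and 0.65 (0.54 to 0.78). Against 958 neurons with *dac* and without *acj6*, 59 of 4582 tested genes were higher (1.29%) and 141 lower (3.08%). There *Sox102F* (5.05), *SoxN* (2.89) and *TfAP-2* (2.01) were called higher. *Drgx* and *beat-IIa* were higher against both, with ratios of 3.08 and 2.57 over neurons with *acj6* alone and of 24.4 and 24.1 over neurons with *dac* alone.

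The number of the 7 genes found in a cell was counted after thinning. Of 195 cells of the set, 17 had none, 77 had 1, 60 had 2, 29 had 3, 11 had 4 and 1 had 5. None was found in 8.72% of the set and in 26.4% of other neurons, 3 genes were found in 14.9% and 8.59%, and 4 genes in 5.64% and 1.95%. In the cluster that held most of the set, 3 genes were found in 20.2% of 109 cells and 4 genes in 9.17%. Pairs of subtype factors were counted in the set. *grn* was found in 6.19% of the 97 cells with *bi* (2.30 to 13%) and in 11.2% of the 125 cells without (6.26 to 18.1%). *TfAP-2* was found in 15.5% of the cells with *bi* (8.92 to 24.2%) and in 20% of those without (13.4 to 28.1%). In both pairs the intervals overlap, and the cells with *bi* were deeper, with a median of 4478 UMIs against 3001. *grn* was found in only 20 cells of the set and *TfAP-2* in 40, so these pairs cannot show whether subtypes are present. The cells are called here by their rule, not as T4 or T5 neurons.

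The set was not uniform. All cells of the table were clustered without the 13 rule genes, which gave 29 clusters. A single cluster of 791 cells held 134 of the 222 cells (60.4%, 53.6 to 66.8%), and the other 88 were spread over 19 clusters, with at most 16 in any of them. Resolutions of 0.5 and 2 also put 134 cells together. In the main cluster *acj6* was found in 81.7% of the cells, *dac* in 30.2% and an excluded gene in 21.1%. Its leading genes over all other cells were *beat-IIa*, *Drgx*, *fkh*, *CG43902*, *beat-Ic*, *Dscam3*, *dpr8*, *Sox102F*, *sns* and *nAChRalpha6*. Because the clusters were built from these genes, the levels in and out of the cluster are a description.

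The 134 cells had a median of 2586 UMIs and 2.99% called doublets, whereas the 88 cells elsewhere had a median of 7159 UMIs and 36.4% called doublets. *Drgx* stood at 10.4 UMIs per 10000 in the cluster and at 0.61 elsewhere, and was found in 91.8% and 20.5% of the cells. *beat-IIa* stood at 12.8 and 1.02, *SoxN* at 23.5 and 4.03, *Lim1* at 12.3 and 1.60, and *E(spl)m6-BFM* at 26.2 and 3.51. *bi* went the other way, at 2.16 in the cluster and 3.24 elsewhere. Over other neurons, the ratios in the cluster were 6.14 for *SoxN*, 6.20 for *Sox102F* and 5.09 for *TfAP-2*. They were 1.37 for *VAChT*, 1.16 for *grn*, 1.06 for *ChAT* and 0.70 for *bi*. The 88 cells elsewhere held 780973 of the 1174298 UMIs of the set, so they made most of the total by which pooled levels were divided. UMIs of leading genes came mostly from the cluster, with 408 of 456 for *Drgx*, 505 of 585 for *beat-IIa* and 924 of 1239 for *SoxN*. For *bi* the cluster held 85 of 338. *nSyb* was found in 24.8% of thinned cells in the cluster and in 40.7% elsewhere. The RNA-binding protein gene *Imp*, a mark of early born neurons, stood at 0.51 in the cluster and at 5.01 elsewhere.

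**Figure D3:**
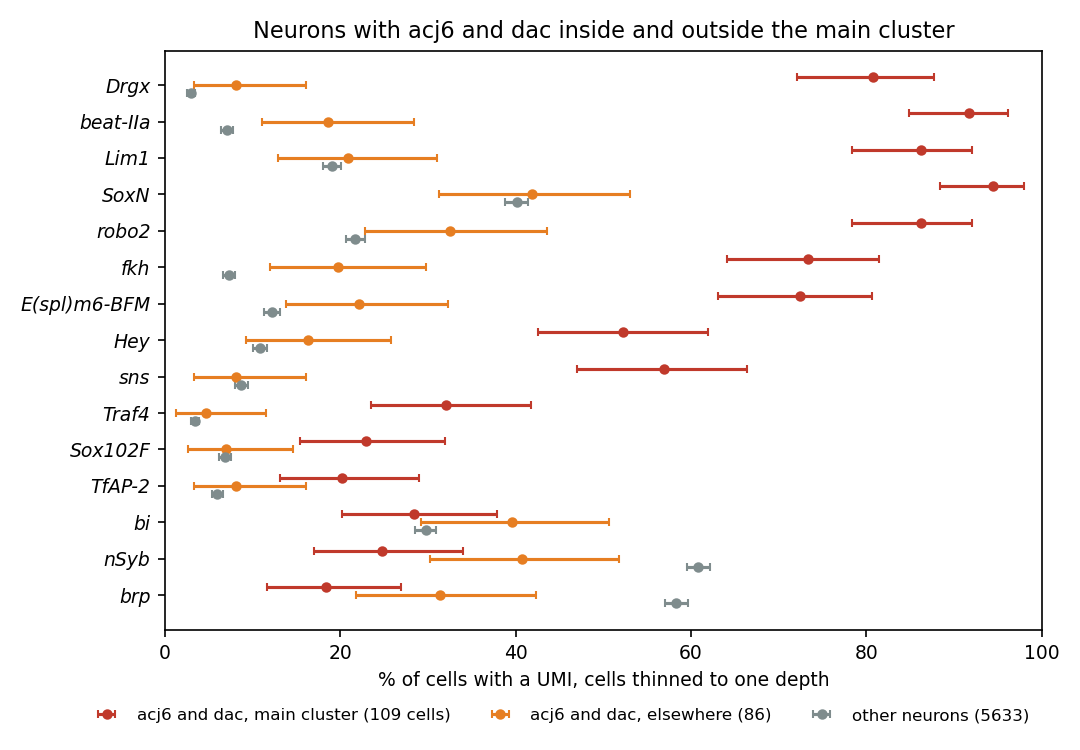
Percent of cells with a UMI of 15 genes (horizontal) after thinning each cell to 2000 UMIs, in neurons with *acj6* and *dac* inside the main cluster, those elsewhere, and other neurons. Bars are exact 95% intervals. The first group stands far to the right from *Drgx* down to *sns*, and the cells elsewhere lie near the other neurons for *Lim1*, *SoxN* and *sns*.

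In the cells elsewhere, *Drgx* (3.46), *E(spl)m6-BFM* (3.10), *fkh* (2.97) and *beat-IIa* (2.78) had ratios to other neurons above 2. *Nplp2* had a ratio of 5.26, with both of the cells that held most of it among these 88. *Rbp* (1.76), *sns* (1.70), *robo2* (1.49) and *tutl* (1.44) lay between, with intervals above 1. The intervals of *Lim1* (1.10), *Hey* (1.11), *SoxN* (1.05) and *Sox102F* (1.27) held 1. Outside the cluster 14 of 3724 tested genes were called higher, of which 8 were also among the 34.

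Leading genes occurred in the same cells. *beat-IIa* was found in 90.8% of the 141 cells with *Drgx* (84.7 to 95%) and in 34.6% of the 81 cells without (24.3 to 46.0%). *Lim1* was found in 88.7% and 43.2%, and *fkh* in 78.7% and 38.3%. *nSyb* ran against this order, with 35.5% of the cells with *Drgx* and 67.9% of those without, but the cells without *Drgx* were deeper, with a median of 6050 UMIs against 2689.

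**Figure D4:**
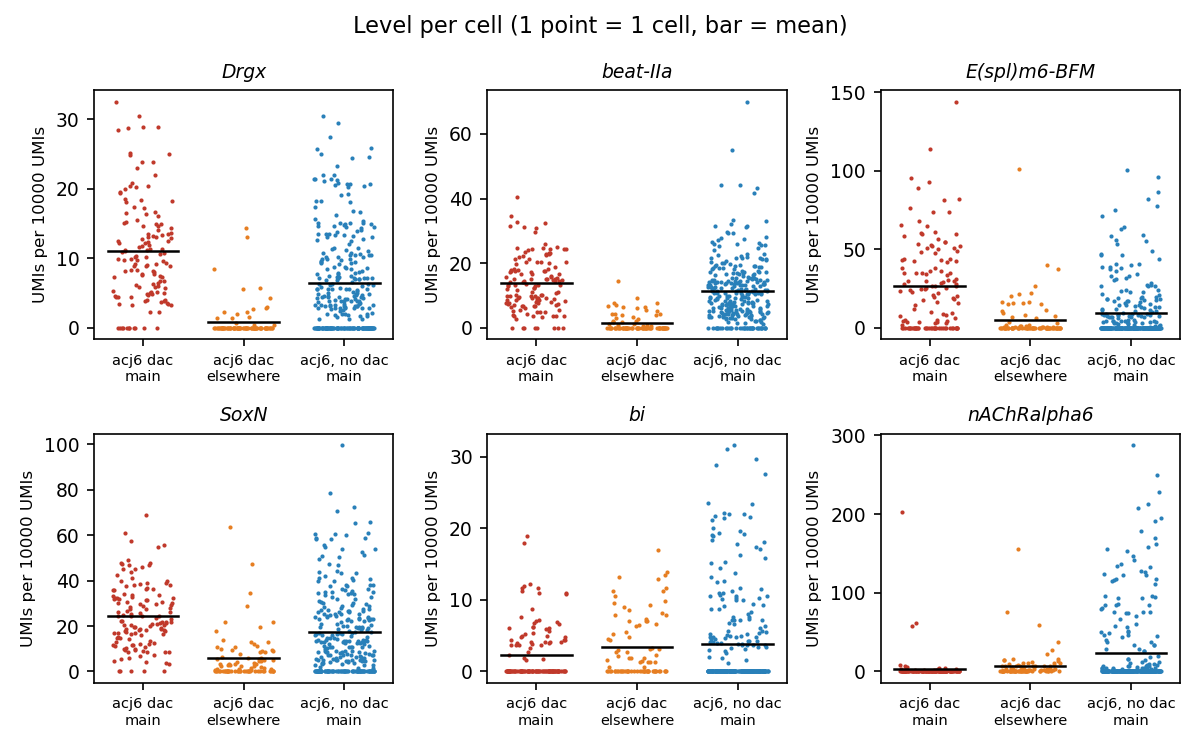
Level of 6 genes in single cells (vertical, UMIs per 10000 UMIs) for neurons with *acj6* and *dac* in the main cluster, those elsewhere, and neurons with *acj6* and without *dac* in the main cluster. Each point is a cell and the bar is the mean over cells. *Drgx* and *beat-IIa* are low in most cells elsewhere, and high levels of *nAChRalpha6* are mostly in the cells without *dac*.

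Inside the main cluster, the 134 cells with both factors could be set beside 294 cells with *acj6* and *elav*, without *dac* and without the excluded genes. This comparison was chosen after the data had been seen. Both groups had like depths, with medians of 2586 and 2321 UMIs and 2.99% and 3.40% called doublets, and *dac* had not been used for clustering. The 134 cells had a median of 1 UMI of *dac*, so some of the 294 may hold *dac* that was not captured. Without *dac* here means without a UMI of it. Of 2060 genes tested, 16 were higher in the cells with *dac* (0.777%) and 61 were lower (2.96%), and the median log2 ratio was -0.04. Thinned cells gave 10 and 44.

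Most genes of the newborn neuron list were higher with *dac*. *E(spl)m6-BFM* stood at 26.2 UMIs per 10000 with *dac* and 8.79 without, a ratio of 2.98 (2.70 to 3.28). *E(spl)m8-HLH*, a bHLH repressor gene of the same complex, had a ratio of 2.27 (1.94 to 2.64), and *Hey* one of 2.05 (1.70 to 2.47). *dap*, the inhibitor of cyclin E kinase that acts as cells leave the cycle, had a ratio of 2.18 (1.59 to 3.00). With *E(spl)mgamma-HLH*, 5 of the 7 genes of this list were called higher and none lower, with a median log2 ratio of 1.11. The other members, *E(spl)m7-HLH* (1.71) and *nerfin-1* (1.29), were not called. Most of the list are *E(spl)* genes, and whether they mark newborn neurons here was not tested. *Lim1* stood at 12.3 against 5.50, a ratio of 2.24 (1.97 to 2.56), and *zfh1* at 2.97 against 1.04, a ratio of 2.86 (2.14 to 3.83).

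Some genes of synapses and cell contacts were lower with *dac*. Of 7 tested maturation genes, *Rim* (0.45), *Syt1* (0.46) and *Snap25* (0.44), which act in vesicle release, were called lower and none higher. Of 8 tested *beat* and *side* genes 5 were lower, among them *side-III* (0.15), *beat-Ic* (0.16) and *side-VI* (0.16). *NetA*, encoding a Netrin guidance cue, had a ratio of 0.13 (0.033 to 0.34). *ct* stood at 13.4 with *dac* and 32.1 without, a ratio of 0.42 (0.38 to 0.46). *ap*, a LIM-homeodomain factor gene, had the lowest ratio, 0.076 (0.020 to 0.20), and was found in 2.99% of the cells with *dac* and 23.5% of those without.

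*nAChRalpha6*, a nicotinic receptor subunit gene, stood at 2.85 with *dac* and at 22.4 without, a ratio of 0.13 (0.10 to 0.15). A few cells made most of this level. A level above 50 per 10000 was reached by 3 of 134 cells with *dac* (2.24%, 0.46 to 6.40%) and by 51 of 294 without (17.3%, 13.2 to 22.2%). These cells held 83.9% and 85.8% of the *nAChRalpha6* UMIs of their groups. Among the cells without *dac*, the share was 24.6% of 69 cells with *ap* and 15.1% of 225 without, and the intervals of these shares overlap.

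None of the 6 tested T4/T5 genes was called between cells with and without *dac*. *SoxN* had a ratio of 1.41 (1.30 to 1.54), *Sox102F* of 0.89 (0.67 to 1.16), *TfAP-2* of 0.76 (0.54 to 1.06) and *bi* of 0.53 (0.41 to 0.68). Genes that led the set over other neurons were unevenly shared. *Drgx* (1.89), *fkh* (1.60) and *beat-IIa* (1.30) were not called, whereas *E(spl)m6-BFM* (2.98), *Traf4* (3.01), *Lim1* (2.24) and *Hey* (2.05) were called higher with *dac*.

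**Figure D5:**
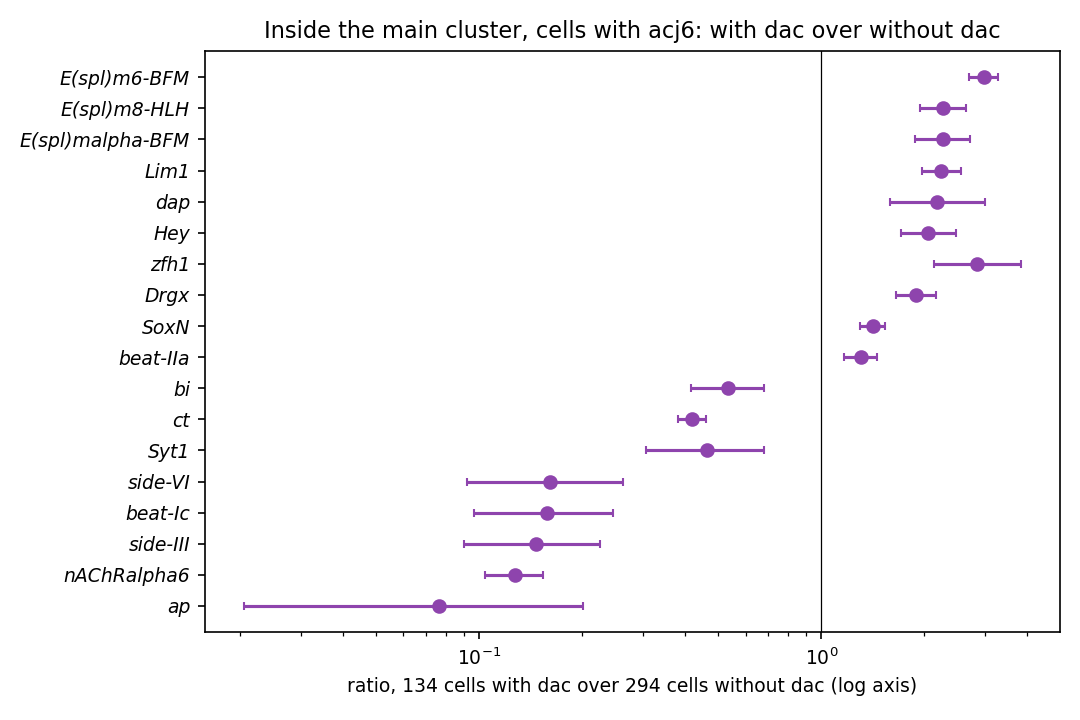
Ratio of pooled levels (horizontal, log axis) of 18 genes between 134 cells with *dac* and 294 cells without *dac*, all with *acj6* and in the main cluster. Bars are exact 95% intervals and the line marks a ratio of 1. The *E(spl)* genes, *dap* and *Hey* lie to the right, and *beat*, *side*, *nAChRalpha6* and *ap* to the left.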

How the data were processed

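Cell Ranger was used by the authors to align reads to BDGP6 and to count UMIs. The filters on cells were not given in the sources used here. The deposited values are on a natural log scale, as ln(1 + x), where x is UMIs per 10000 UMIs of the cell; this scale was read from the values. The log was undone, and 100% of the values were whole multiples (within 0.01) of the lowest value of their cell, so UMIs were recovered, between 500 and 333220 per cell (median 4092). The 2 deposited tables are identical and were used as 1 set of cells of open genotype. Only 13329 of 15902 features matched the reference symbols.

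Pooled ratios have exact 95% binomial intervals. The method was tested on simulated pooled counts without variation between cells, so that test does not cover genes that are uneven between cells. The 13 rule genes, *nSyb*, *brp* and 1891 transposable element features were not tested. Clustering used scanpy 1.11.5 and leidenalg 0.10.2 (Python 3.11.15) with 2000 variable genes, 30 components, 15 neighbours and a resolution of 1. Doublets were called with Scrublet in all cells (12.8%) and kept. Shares were also computed after thinning to 2000 UMIs, which left out 27 of 222 cells of the set and 561 of 6194 other neurons.

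Named genes were the 15 highest and 10 lowest ratios, the 7 T4/T5 genes, up to 4 called genes of each of 24 lists and the 5 most abundant optic lobe factors. Genes named inside the main cluster, and others outside this rule, were chosen after their values were seen. The cells and lists were chosen with earlier results of these data known. Alternatives were the mean over cells, thinning, other neuron definitions, stricter or no UMI limits, other resolutions, clustering with the rule genes kept, and leaving out doublets. A gene selected by the rule for named genes is not reported here.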

Additional observations from a re-analysis of the deposited data

How the results depend on the processing

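No paired analysis was possible because both tables hold the same cells, with no map to samples. The 34 genes called higher and 126 called lower of 4664 tested, and the 3 T4/T5 genes called, depended on the choice of cells and limits. The number of genes tested changed with that choice too. The mean over cells, called by the 2-fold limit without the interval, gave 332 lower and kept the 3 T4/T5 calls. Thinned cells kept 2 of 5 tested T4/T5 genes, *SoxN* and *Sox102F*. The T4/T5 median log2 ratio was -0.34 for the mean over cells and -0.35 for thinned cells. Against all *elav* cells without the excluded genes 77 of 4511 tested genes were lower and 1 T4/T5 gene (*Sox102F*) was called. With members that had *nSyb* and *brp* 0 of 3 tested T4/T5 genes were called, *lncRNA:CR44272* was at -0.076 and *Hey* at -0.38. An expected number of at least 100 UMIs gave 10 higher and 15 lower of 1479 genes tested, and 1 T4/T5 gene of 3. A limit of 1 UMI gave 214 and 306 of 13608. At least 2 UMIs of *acj6* and *dac* left 93 cells, 79 of 2712 tested genes lower and 1 T4/T5 gene of 3 tested, with *Nplp2* at -2.53.

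With no gene excluded, 635 cells gave 532 higher and 1056 lower of 8249 genes tested, and 0 T4/T5 genes (median -0.77). The 413 added cells held 12517560 UMIs beside 1174298 of the set, so most of the pooled UMIs came from them. Of these 413 cells 41.6% were called doublets. There the log2 ratios were -1.02 for *Nplp2*, -0.14 for *lncRNA:CR46004*, -0.23 for *Rbp*, -0.77 for *Sox102F*, 0.54 for *peb*, -0.083 for *SoxN*, -0.24 for *TfAP-2*, -1.0 for *Dscam3*, -1.02 for *Dscam2* and -0.12 for *zfh1*. The cause was not tested.

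Added after the data were seen, the 134 cells of the main cluster gave 67 higher and 394 lower of 2287 genes tested. They gave 1 T4/T5 gene of 3 tested (*Nplp2* -2.72). *Sox102F* and *TfAP-2* were under the limit for testing there, with ratios of 6.20 and 5.09. The 88 cells elsewhere gave 14 and 49 of 3724 genes tested, and 0 T4/T5 genes (*Traf4* -0.34, *Dscam2* -0.087). Without the 2 cells with most *Nplp2* it was at -2.75. Inside the cluster, thinned cells gave 10 genes higher with *dac* in place of 16. Leaving out called doublets changed none of these counts by over 1.5 times and turned no named gene, but moved 19 named log2 ratios beyond their interval, while 24 stayed within.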
